A study of Mus musculus with 2 samples.

Results

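The 10 genes described here, out of 55450 in the deposited gene lists, encode cytosolic Hsp70 and Hsp90 chaperones, co-chaperones and a mitochondrial co-chaperonin: Hspa1a, Hspa1b, Hspa8, Hsp90aa1, Hsp90ab1, Hsph1, Dnaja1, Dnajb1, Chordc1 and Hspe1. They were chosen by symbol, and all 10 were found, each as 1 row. Their RNA was followed in microglia, the resident macrophages of the brain, and in the brain endothelial cells that came through the same sort. The study compared adult male C57BL/6J mice given saline (awake group, 3 mice) with mice given 100 mg/kg sodium pentobarbital, a barbiturate anesthetic (anesthesia group, 3 mice). Brains were minced and digested with collagenase IV and DNase I, and cells were sorted for CD11b with low CD45 and captured in droplets with the 10x Chromium 3' chemistry, so that each counted molecule carries its own identifier (UMI). Each group has 1 library, so the differences given here lack a replicate check, no test was possible, and effects of the library or of handling cannot be told apart from the group's. Values of the awake and anesthesia libraries are given in that order, and "under anesthesia" stands for the anesthesia library. Every interval is a 95% interval of counting error only. It is not stated how the 3 mice of each group entered their library, and the time under anesthetic is also not given in the sources used here.

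Hsp70 proteins bind stretches of unfolded protein and release them in cycles of ATP hydrolysis. J-domain proteins bring them substrates and start the hydrolysis, and Hsp110 proteins exchange the nucleotide. Hsp90 takes over clients such as kinases and steroid receptors at a late stage of folding. Some members are made at all times, and others are switched on by heat shock factor 1 (HSF1) when misfolded protein builds up. HSF1 binds heat shock elements, which are inverted repeats of GAA units. Part of the set is also known to be induced while tissue is dissociated into cells.

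The promoters show how alike the inducible pair is and which members hold an exact match to the heat shock element close to the start site. RefSeq promoter windows of 300 bases (build GRCm38.p6, 250 bases before to 50 after a start site) were held for 7 of the 10 members: Hspa1a, Hspa1b, Hsph1, Dnaja1, Dnajb1, Chordc1 and Hspe1. Capitals mark exact matches to 2 units (GAANNTTC or TTCNNGAA) or 3 units (GAANNTTCNNGAA or TTCNNGAANNTTC), searched on both strands. Units with a mismatched base were not searched, so a window without a match was not shown to lack an element. A 3-unit match contains 2 overlapping 2-unit matches.
Hspa1a, chr17:34972107-34972406, strand -: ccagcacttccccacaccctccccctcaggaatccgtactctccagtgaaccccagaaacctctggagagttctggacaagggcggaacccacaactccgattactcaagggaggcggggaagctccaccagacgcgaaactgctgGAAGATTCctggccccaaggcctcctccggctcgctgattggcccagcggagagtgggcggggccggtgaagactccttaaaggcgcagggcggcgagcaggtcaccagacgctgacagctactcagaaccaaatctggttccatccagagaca
Hspa1b, chr17:34959189-34959488, strand -: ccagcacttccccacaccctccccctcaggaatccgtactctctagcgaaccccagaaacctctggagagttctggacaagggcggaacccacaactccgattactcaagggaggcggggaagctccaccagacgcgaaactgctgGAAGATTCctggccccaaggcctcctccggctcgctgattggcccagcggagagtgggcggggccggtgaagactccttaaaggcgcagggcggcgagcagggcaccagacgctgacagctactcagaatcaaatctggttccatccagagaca
Chordc1, chr9:18292017-18292316, strand +: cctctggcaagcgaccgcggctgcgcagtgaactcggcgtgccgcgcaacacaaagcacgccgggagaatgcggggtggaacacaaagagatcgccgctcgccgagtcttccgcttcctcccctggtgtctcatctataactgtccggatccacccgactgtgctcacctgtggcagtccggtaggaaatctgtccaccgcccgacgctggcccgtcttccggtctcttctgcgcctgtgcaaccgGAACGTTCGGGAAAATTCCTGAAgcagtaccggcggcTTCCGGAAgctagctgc
Hspe1, chr1:55087898-55088197, strand +: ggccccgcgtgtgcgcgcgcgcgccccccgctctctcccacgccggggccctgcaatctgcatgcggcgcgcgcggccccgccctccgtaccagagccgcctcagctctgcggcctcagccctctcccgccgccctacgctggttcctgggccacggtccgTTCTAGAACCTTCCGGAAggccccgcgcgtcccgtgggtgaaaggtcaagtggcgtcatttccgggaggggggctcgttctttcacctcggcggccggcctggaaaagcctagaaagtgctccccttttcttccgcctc
Hsph1, chr5:149636287-149636586, strand -: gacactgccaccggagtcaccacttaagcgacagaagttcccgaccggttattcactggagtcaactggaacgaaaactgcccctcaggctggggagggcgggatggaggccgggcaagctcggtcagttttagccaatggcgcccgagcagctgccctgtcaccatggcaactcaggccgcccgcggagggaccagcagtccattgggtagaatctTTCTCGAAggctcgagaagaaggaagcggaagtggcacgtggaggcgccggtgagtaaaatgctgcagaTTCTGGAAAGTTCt

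The windows of Hspa1a and Hspa1b had the same base at 296 of 300 positions and differed at 4. Both held a single 2-unit match, whose first base lies at position -104 with the start site as 0. Chordc1 held 3 overlapping 3-unit matches from position -4, and Hspe1 held 2 from position -89. Hsph1 held 1 in the window shown, from position 36, and a further 2-unit match at position -33, and the window of its other start site holds both too. Dnaja1 had a 2-unit match at position -124 in 1 of its 3 windows, and the 2 windows of Dnajb1 had none. Over all 27025 genes with a window, 0.662% held a 3-unit and 17.0% a 2-unit match. A match describes letters in the window and not a bound site.

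The awake library held 53262885 UMIs in 8600 barcodes and the anesthesia library 61139016 in 9412, and 14 barcode sequences occurred in both. The median mitochondrial share of a cell's UMIs was 1.45% and 2.26%. After filtering, 7402 awake and 8143 anesthesia cells fell into microglia-like clusters, and 113 and 123 into 1 endothelial-like cluster. All 10 microglia markers were seen in at least 25% of the microglia-like cells of each library, and all 10 endothelial markers in at least 25% of the endothelial-like cells. The endothelial-like cells also held microglial RNA. Scaled to the class's total as counts per 1000000 (CPM), their sum over the 10 microglia markers was 4359 awake and 9129 under anesthesia, against 23084 and 21056 in microglia-like cells, with none of the 10 at 0. None of the endothelial markers was at 0 in microglia-like cells, with summed CPM of 62.6 and 52.2. The main microglia-like clusters were nearly separate by library: clusters 0 and 2 held 3534 and 3464 awake cells against 89 and 99 anesthesia cells, and clusters 3 and 10 held 62 and 60 against 3399 and 4443. So a comparison of libraries is also one of clusters.

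In microglia-like cells the constitutive Hsp70 gene Hspa8 was over 1.5-fold lower in the anesthesia library. Both genes of the inducible Hsp70 pair were higher, but only Hspa1b by over 1.5-fold. Hspa1a, the pair's sum and both Hsp90 genes differed by less than 1.5-fold. Of the 10 members, 1 (Hspa1b) was at least 1.5-fold higher and 4 (Hspa8, Chordc1, Dnajb1 and Hsph1) at least 1.5-fold lower. Of all 11387 genes with at least 200 UMIs in these cells, 13.2% were that much higher and 12% that much lower. The median log2 ratio, anesthesia over awake, was -0.33 over the 10 members and -0.02 over all measured genes. Dnajb1 and Hsph1 stood just past the threshold, which is 0.58 on the log2 scale, and both lay inside it when mitochondrial, ribosomal protein and similar genes were left out of the scaling (-0.58 and -0.56), which leaves 2 members lower.

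**Figure D1:**
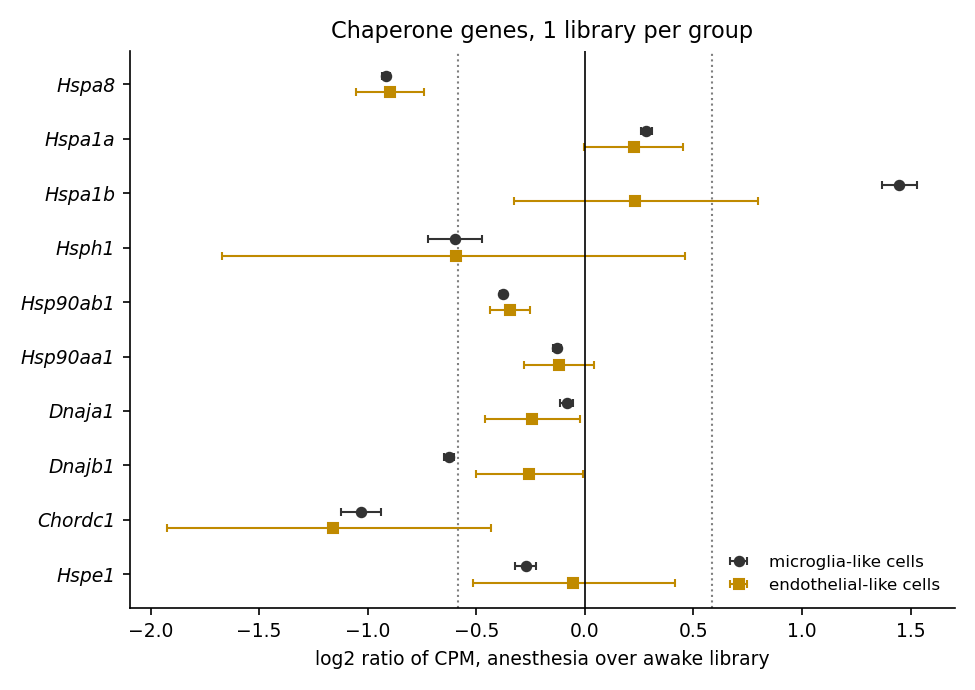
Log2 ratio of CPM, anesthesia over awake library, for each gene (rows) in microglia-like cells (dark circles) and endothelial-like cells (yellow squares), with 95% intervals of counting error. Dotted lines mark 1.5-fold, and the endothelial-like point of Hsph1 rests on 19 and 15 UMIs. The classes lie close together for most genes, and Hspa1b is at 1.45 in microglia-like and 0.23 in endothelial-like cells.

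Hspa8 encodes Hsc70, the constitutive Hsp70 that also strips clathrin from vesicles and serves chaperone-mediated autophagy. It lies on chromosome 9, 40800984 to 40810087 (GRCm38). Its summed counts were 67245 UMIs, or 1392 CPM, awake and 41432 UMIs, or 738 CPM, under anesthesia. The log2 ratio was -0.92 (-0.93 to -0.90), a 1.89-fold lower level, at percentile 3.86 of the measured genes. Part of its 3' end is shared with other loci: 24.1% of the 91-base windows in the last 500 bases of its longest transcript also occur in transcripts of 2 other genes, Gm15459 and Gm8355. For the other 9 members no such window was found in another gene.

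Hspa1a and Hspa1b encode nearly the same inducible Hsp70 protein and lie on the minus strand of chromosome 17 as single-exon genes, at 34969190 to 34972156 and 34956436 to 34959238. Hspa1a had 19537 UMIs (404 CPM) awake and 27616 UMIs (492 CPM) under anesthesia, a log2 ratio of 0.28 (0.26 to 0.31). Hspa1b had 1584 UMIs (32.8 CPM) and 5021 UMIs (89.4 CPM), a log2 ratio of 1.45 (1.37 to 1.53), or 2.73-fold. The pair summed to 437 and 581 CPM, a log2 ratio of 0.41 (0.39 to 0.44). So most of the pair's UMIs came from Hspa1a, 92.5% (92.1 to 92.9) awake and 84.6% (84.2 to 85.0) under anesthesia. About 49.1% of the 91-base windows of the whole Hspa1a transcript occur in Hspa1b, but 0% of those in the last 500 bases, the end from which a 3' library is read. Reads from farther upstream could still fall in the shared part, and how the counting treated them is not given in the sources used here.

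Hsph1, an Hsp110 protein that exchanges the nucleotide of Hsp70, lies on chromosome 5, 149614287 to 149636376. Its level was 25.04 CPM (1210 UMIs) awake and 16.5 CPM (928 UMIs) under anesthesia, a log2 ratio of -0.60 (-0.72 to -0.47). This was the member with the fewest UMIs in microglia-like cells.

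The Hsp90 genes differed less. Hsp90ab1, the constitutive form (chromosome 17, 45567775 to 45573271), had 2482 CPM awake and 1908 CPM under anesthesia, a log2 ratio of -0.38 (-0.39 to -0.37). Hsp90aa1, the stress-inducible form (chromosome 12, 110690605 to 110702728), had 1092 CPM and 999.9 CPM, a log2 ratio of -0.13 (-0.14 to -0.11). In both families the log2 ratio of the constitutive gene was thus below that of its inducible counterparts, although Hsp90aa1 itself lay on the lower side. With 1 library a group, these gaps have no replicate error. The Hsp90 gap was nearly absent with the GC and length trend removed, where Hsp90ab1 was at -0.23 and Hsp90aa1 at -0.22. Over the groups of cells described below, the order was reversed in choroid plexus-like cells, at -0.0066 and -0.27. It held in the other groups in the main setting. In endothelial-like cells it was reversed when the class was drawn by marker counts (-0.05 and -0.48) and without cells over 10000 UMIs (-0.21 and -0.26). The mean of per-cell CPM (-0.27 and -0.36) and correction for GC and length (-0.17 and -0.23) reversed it there too. It held in the other alternatives for that class. Within microglia-like cluster 2 the gap was absent (-0.385 and -0.387), and the order held in the other microglia-like clusters.

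The co-chaperones were all on the lower side in the anesthesia library, by differing amounts. Dnajb1, the J-domain protein that works with inducible Hsp70 and is itself a heat shock target (chromosome 8, 83608193 to 83612653), had 651 CPM awake and 422 CPM under anesthesia, a log2 ratio of -0.63 (-0.65 to -0.60). Dnaja1, a farnesylated J-domain partner of Hsc70 (chromosome 4, 40722150 to 40737149), had 390.1 and 368 CPM, a log2 ratio of -0.08 (-0.11 to -0.06). Its exons overlap those of Smu1 on the other strand. Thus, over all microglia-like cells, the inducible Hsp70 pair and its J-domain partner Dnajb1 stood on opposite sides of 0. Within cluster 10 Dnajb1 was at 0.02 (-0.20 to 0.25), and in the other microglia-like clusters its interval lay below 0. Hspa1a was itself below 0 in clusters 2 and 3, as given below.

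Chordc1, a zinc-binding Hsp90 co-chaperone also known as morgana (chromosome 9, 18292125 to 18317442), had the lowest ratio of the 10. It had 54.2 CPM (2618 UMIs) awake and 26.5 CPM (1488 UMIs) under anesthesia, a log2 ratio of -1.03 (-1.12 to -0.94). Hspe1, the mitochondrial Hsp10 that caps the Hspd1 chaperonin (chromosome 1, 55088132 to 55091307), had 154 and 127 CPM, a log2 ratio of -0.27 (-0.32 to -0.23). Its head-to-head neighbour Hspd1, whose exons overlap those of Hspe1 on the other strand, had 90.4 and 95.6 CPM, a log2 ratio of 0.08 (0.02 to 0.14). The 3 members with an exact 3-unit match in the window, Chordc1, Hspe1 and Hsph1, therefore spanned -1.03 to -0.27. Hspa1a and Hspa1b, whose windows are almost the same as each other, stood at 0.28 and 1.45.

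Counted by cell, the same genes stood out. Each cell was thinned to 2000 UMIs, and 67 and 117 shallower microglia-like cells were dropped. Hspa8 then had a UMI in 91.5% (6711 of 7335) of awake and 75.6% (6066 of 8026) of anesthesia cells, or 99.3% and 96.5% unthinned. Hspa1a had one in 41.5% and 51.1% (64.8% and 73.9% unthinned), and Hspa1b in 5.81% and 14.5% (15.6% and 32.3% unthinned). Dnajb1 was seen in 64.0% and 53.0%, Chordc1 in 10.05% and 4.82%, and Hsph1 in 4.92% and 2.79%. Hsp90aa1 was seen in 83.3% and 82.5% and Dnaja1 in 51.5% and 50.1%. No class in these libraries is known to lack these genes, so free RNA was gauged with P2ry12, a microglial receptor, which after thinning was seen in 25.5% and 39.3% of endothelial-like cells. The median microglia-like cell held 6009 and 5508 UMIs and the median endothelial-like cell 5507 and 4535.

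The difference in Hspa8 was a shift of the whole distribution and not of a few cells. Among thinned awake cells, 9.30% held 6 or more Hspa8 UMIs, against 0.673% of anesthesia cells, while 8.51% and 24.4% held none. For the sum of Hspa1a and Hspa1b, 55.9% of awake and 43.4% of anesthesia cells held none, and 1.31% and 1.71% held 6 or more. Hspa1a was the most unevenly spread of the 10 by the variance over the mean of UMIs per thinned cell, 2.20 awake and 1.76 under anesthesia, where sampling alone gives about 1. The 10% of cells with the most Hspa1a held 48.9% of its UMIs awake and 40.2% under anesthesia, and the highest cell held 19 and 10. Hspa8 had variance over mean of 1.31 and 1.11, and Hsp90ab1 1.69 and 1.45.

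**Figure D2:**
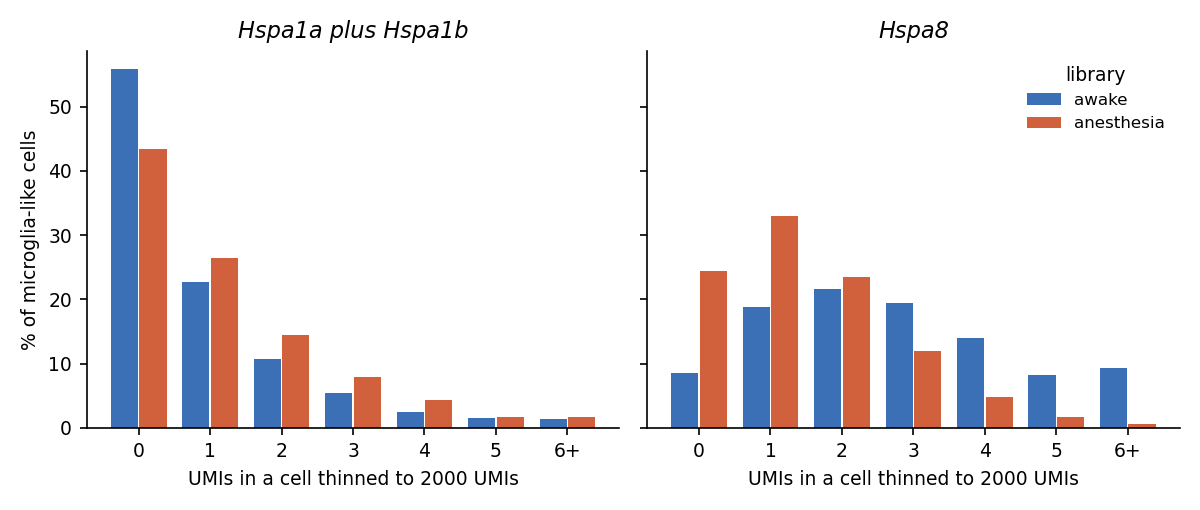
Share of microglia-like cells (%) by the number of UMIs of Hspa1a plus Hspa1b (left) and of Hspa8 (right), with every cell thinned to 2000 UMIs, awake library in blue and anesthesia library in orange. Cells with no UMI are 55.9% and 43.4% for the pair, and 8.51% and 24.4% for Hspa8.

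Within each library the members varied little together from cell to cell. Over the 45 pairs of members, Pearson's r of log-transformed thinned counts had a median of 0.022 awake and 0.0076 under anesthesia, and the highest values were 0.12 and 0.11. The pair Hspa1a and Hspa1b gave 0.11 in each, and Hspa1a with Hsp90aa1 0.10 and 0.08. Correlations this weak in sparse counts are values and no finding. Cells with 3 or more UMIs of the Hspa1a and Hspa1b pair (10.7% of awake and 15.7% of anesthesia cells) had a mean of 2.59 and 2.34 Hsp90aa1 UMIs, against 2.03 and 1.91 in cells with none. For Dnajb1 the means were 1.62 and 0.982 against 1.24 and 0.780, and for Dnaja1 0.794 and 0.721 against 0.792 and 0.728. The early-response gene Fos, whose RNA also appears during dissociation, had 4.93 and 3.34 UMIs against 3.73 and 2.51.

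By the same measure, the 5 genes most like the inducible pair among 4475 genes were Junb, Gadd45b, Nfkbia, Cited2 and Egr1. Their r ran from 0.13 to 0.17 awake and from 0.16 to 0.21 under anesthesia, over 7335 and 8026 cells that share a library. These are early-response and stress-response genes, and the median r of all 4475 was -0.00495 and -0.00661. For Hspa8 the 5 most alike, Ddx5, Ptma, Ftl1, Srsf2 and Sertad1, reached only 0.06 to 0.09 and 0.04 to 0.06.

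Between the main microglia-like clusters of 1 library, the inducible pair differed more than Hspa8 or the Hsp90 genes. In the anesthesia library, cluster 10, led by Mir155hg, Nr4a3 and Cxcl2, had 536 CPM of Hspa1a and 97.0 CPM of Hspa1b, against 402 and 72.6 CPM in cluster 3. The log2 ratios of cluster 10 over 3 were 0.42 (0.38 to 0.46) and 0.42 (0.33 to 0.51), Hsph1 gave 0.45 (0.23 to 0.67), and Hspa8 -0.07 (-0.10 to -0.04). In the awake library, cluster 2, led by Klf2 and Tsc22d3, had less of the pair than cluster 0, with log2 ratios of -0.43 (-0.47 to -0.39) for Hspa1a and -0.47 (-0.63 to -0.32) for Hspa1b. Hspa8 was at 0.20 (0.17 to 0.22) there. The median log2 ratio over all measured genes was 0.14 for cluster 2 over 0 and -0.08 for cluster 10 over 3, so Hspa8 lay near both medians. No member reached 1.5-fold in either pair of clusters, where 3.46% and 2.23% (cluster 2 over 0, higher and lower) and 2.54% and 0.902% (cluster 10 over 3) of all measured genes did. The clusters were made without the members, the 89 further chaperone and heat shock genes and the 15 early-response genes listed below. Other early-response genes, such as Nr4a3 and Cxcl2, were not kept out of the clustering. The clusters are thus not independent of early-response genes.

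Hspa8 was also lower in the anesthesia library within each of the 6 microglia-like clusters and in each bin of cell depth. In cluster 7, the interferon-response cluster with 112 awake and 89 anesthesia cells, its log2 ratio was -0.95 (-1.10 to -0.79). Over 5 bins of cell depth, from 2000 UMIs upward, Hspa8 ran from -1.01 to -0.83 and Chordc1 from -1.12 to -0.97. Hspa1b was at 0.59 (0.22 to 0.98) in cells of 2000 to under 4000 UMIs and between 1.38 and 1.63 in the other 4 bins. Hspa1a ran from 0.17 to 0.35 and Dnajb1 from -0.77 to -0.51. The inducible pair was less even over the clusters. Hspa1b was at 0.30 (-0.33 to 1.02) in cluster 3, 1.29 (0.80 to 1.73) in cluster 0 and 2.02 (1.39 to 2.69) in cluster 7, the 3 clusters with at least 20 of its UMIs in each library. With fewer UMIs in 1 library, Hspa1b was at 0.58 (-0.21 to 1.27) in cluster 2, from 539 and 17 UMIs. It was at 2.73 (1.76 to 3.67) in cluster 9, from 24 and 18 UMIs, and at 1.24 (0.53 to 2.04) in cluster 10, from 16 and 3574 UMIs. Hspa1a was lower in cluster 2, at -0.34 (-0.62 to -0.07), and at -0.22 (-0.45 to 0.02) in cluster 3, but higher in cluster 7, at 0.47 (0.24 to 0.69), and in cluster 9, at 0.95 (0.60 to 1.29). Its median over the 6 clusters was 0.08, and that of Hspe1 was -0.02, so the higher level of Hspa1a over all microglia-like cells did not hold in each cluster.

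**Figure D3:**
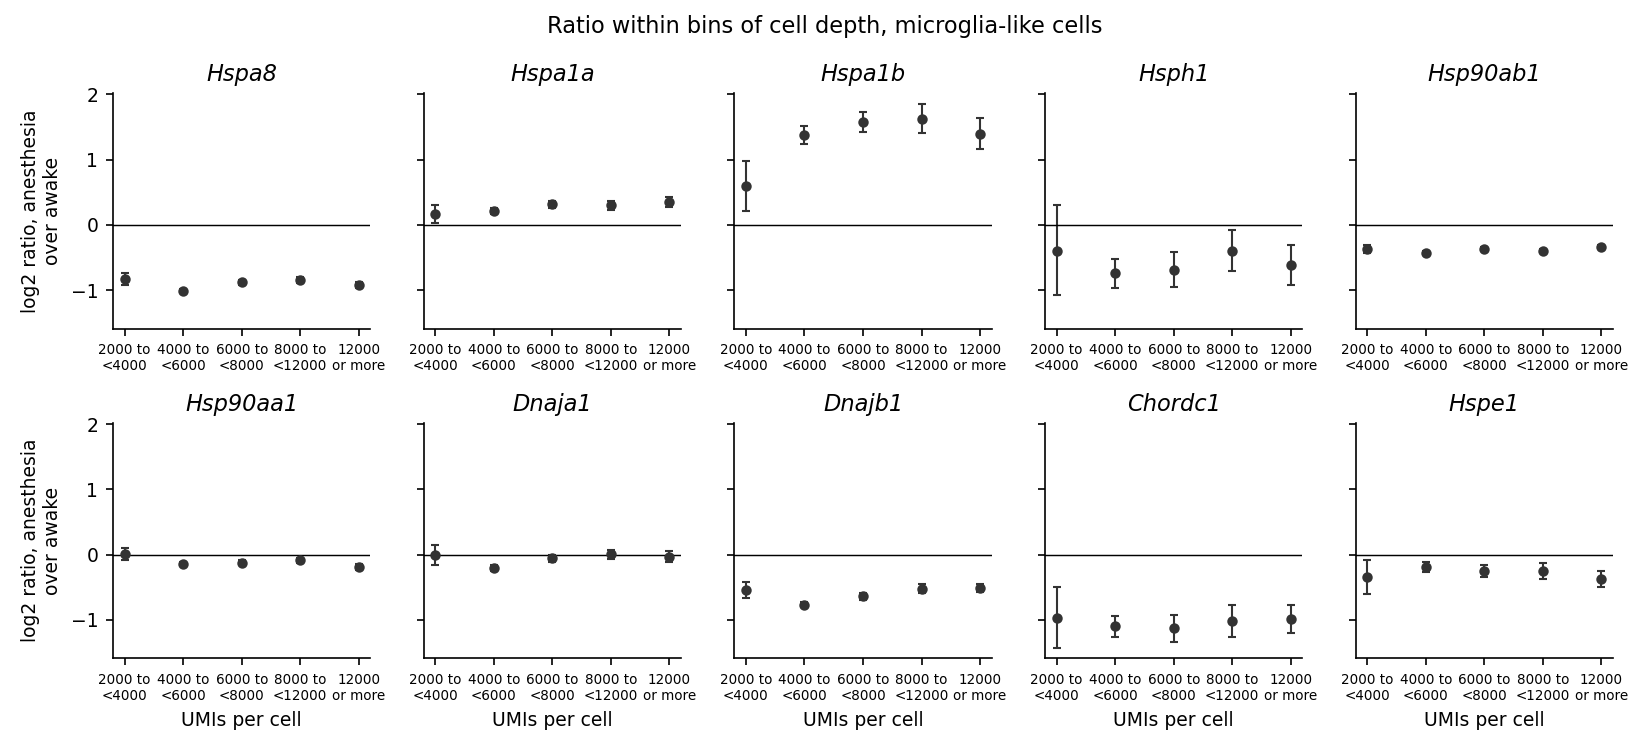
Log2 ratio of CPM, anesthesia over awake library, of each gene in microglia-like cells grouped by their total UMIs (x axis), with 95% intervals of counting error. Hspa8 and Chordc1 lie below 0 in all 5 bins and Hspa1a and Hspa1b above 0, with Hspa1b lowest in the shallowest bin.

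In endothelial-like cells, which line the vessels and form the blood-brain barrier, 2 of 9 members with at least 50 UMIs were at least 1.5-fold lower (Hspa8 and Chordc1) and 0 were higher. Of all 4900 genes measured there, 20.8% were lower and 18.6% higher by that much. The median log2 ratio of the 9 was -0.24 and that of all 4900 genes -0.06. Hsph1, with 19 and 15 UMIs, was not measured.

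Hspa8 had 845 UMIs (1206 CPM) in the awake and 540 UMIs (648 CPM) in the anesthesia endothelial-like cells, a log2 ratio of -0.90 (-1.06 to -0.74). Chordc1 had 47 and 25 UMIs, 67.1 and 29.99 CPM, a log2 ratio of -1.16 (-1.92 to -0.43). Hsp90ab1 had 2890 and 2274 CPM (-0.35, -0.44 to -0.25) and Hsp90aa1 879.5 and 809.8 CPM (-0.12, -0.28 to 0.04). For these 4 genes the ratio in endothelial-like cells differed from that in microglia-like cells by less than its counting interval. In the 42 awake and 32 anesthesia endothelial-like cells with at most 2 microglia markers seen, Hspa8 was at -0.57, short of 1.5-fold, and Hsp90ab1 at -0.04. The part of free or co-captured microglial RNA in these ratios was not tested beyond that.

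Hspa1b was where the classes parted. It had 48 UMIs (68.5 CPM, 50.5 to 90.9) in awake and 67 UMIs (80.4 CPM, 62.3 to 102) in anesthesia endothelial-like cells, a log2 ratio of 0.23 (-0.33 to 0.80). A difference there was not detectable at this depth. The log2 ratio in endothelial-like minus that in microglia-like cells was -1.22 (-1.76 to -0.68), and between -1.49 and -0.99 in 8 other settings. In the awake library Hspa1b was higher in endothelial-like than in microglia-like cells, by 1.06 (0.62 to 1.48) on the log2 scale. In the anesthesia library the same ratio was -0.15 (-0.52 to 0.19). The summed microglia markers in these cells stood at 4359 CPM awake and 9129 CPM under anesthesia, and in the 42 awake and 32 anesthesia cells with at most 2 of these markers seen the log2 ratio of Hspa1b was 0.39, also below that in microglia-like cells. Hspa1a supplied 85.1% and 85.0% of the pair's UMIs in endothelial-like cells, and its log2 ratio was 0.22 (-0.0032 to 0.45). That sign did not hold when the class was drawn by marker counts (60 and 53 cells), where Hspa1a was at -0.22, and Hspa1b was at -0.03 without the 8% of cells with the highest doublet scores.

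Dnajb1 also differed between the classes. It had 391 and 328 CPM in endothelial-like cells, a log2 ratio of -0.26 (-0.50 to -0.01), and the endothelial-like minus microglia-like difference was 0.37 (0.13 to 0.61), between 0.22 and 0.41 in the other settings. Within each library Dnajb1 was lower in endothelial-like than in microglia-like cells, with a log2 ratio of -0.73 (-0.91 to -0.56) awake and -0.37 (-0.54 to -0.19) anesthesia. Dnaja1 and Hspe1 had log2 ratios of -0.24 (-0.46 to -0.02) and -0.05 (-0.52 to 0.41) between the libraries. For the other 8 members the interval of the difference between the classes included 0. Among all 4578 genes measured in both classes, 30.6% were at least 1.5-fold higher and 24.5% lower in endothelial-like than in microglia-like cells of the awake library, and 23.9% and 19% in the anesthesia library. Of the 10 members, Hspa1b passed that line upward and Dnajb1 downward, both in the awake library, and none did in the anesthesia library.

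**Figure D4:**
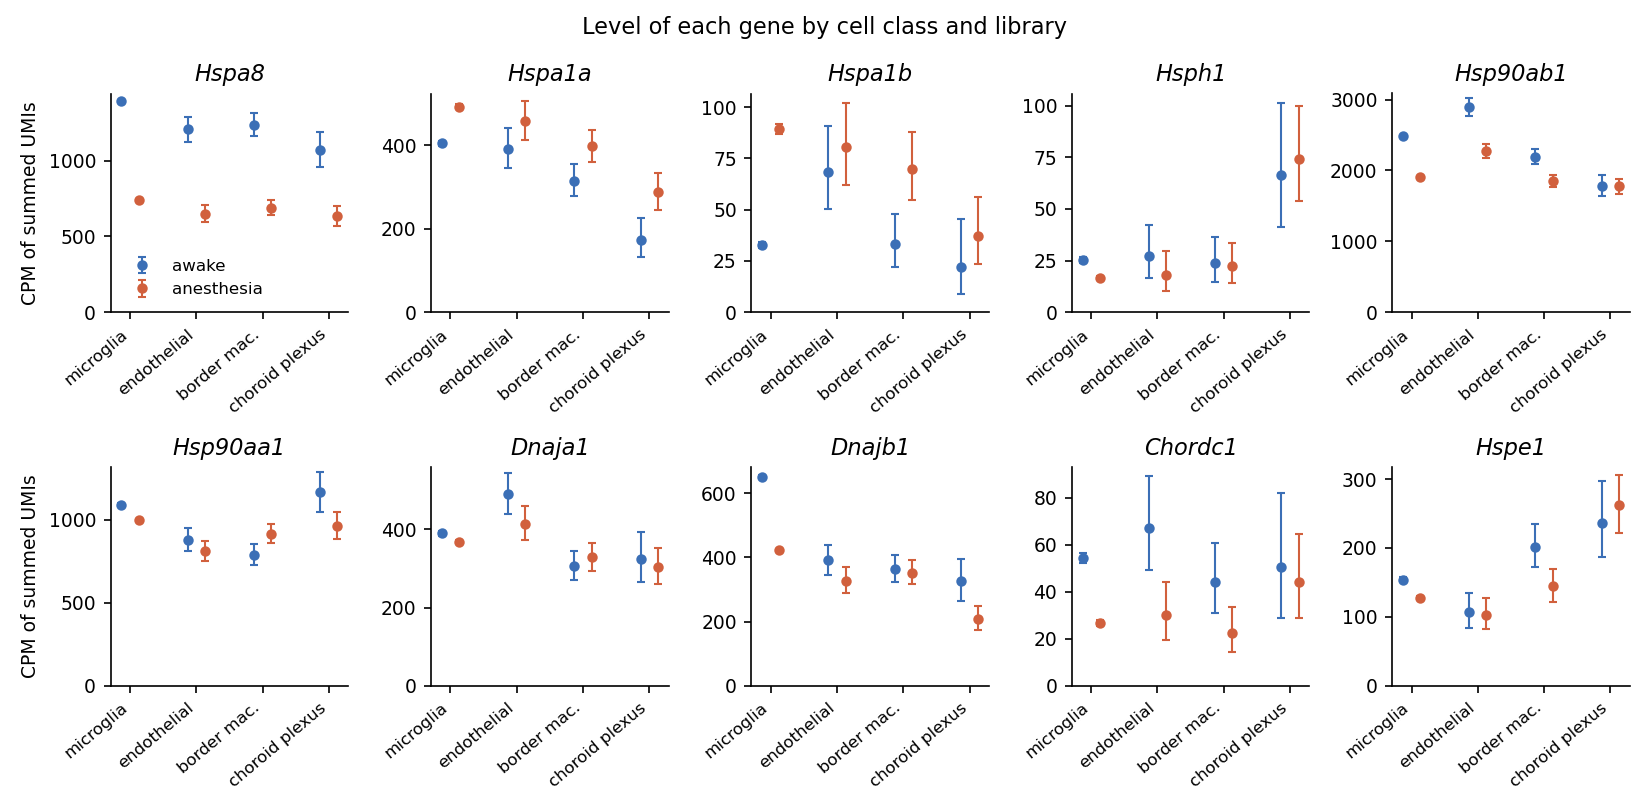
Level of each gene (CPM of summed UMIs, linear axis from 0) in 4 cell classes, awake library in blue and anesthesia library in orange, with exact Poisson 95% intervals. Hspa8 lies lower in the anesthesia library in each of the 4 classes, and Hspa1b in the awake library is at 68.5 CPM in endothelial-like cells and between 22.1 and 33.2 CPM in the other 3.

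Seen over 5 groups of cells (microglia-like, endothelial-like, border-associated macrophage-like, choroid plexus or ependymal-like, and the clusters left unnamed), Hspa8 was the one member whose interval lay on the same side of 0 in 5 of 5. Its log2 ratio was between -1.03 and -0.75. Chordc1, Dnajb1 and Hsp90ab1 had an interval below 0 in 4 of 5, with values from -1.16 to -0.20, from -0.86 to -0.05 and from -0.45 to -0.0066. The exceptions were the choroid plexus-like cells for Chordc1 (16 and 26 UMIs) and Hsp90ab1 (1782 and 1774 CPM) and the macrophage-like cells for Dnajb1, at 364 and 353 CPM. Hspa1b was above 0 in every group, with an interval above 0 in 3 of 5, among them the macrophage-like cells at 1.07 (0.42 to 1.76) from 28 and 72 UMIs.

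Hspa1a and Hsp90aa1 did not go one way. Hspa1a ranged from -0.17 (-0.32 to -0.02) in the unnamed clusters to 0.72 (0.28 to 1.19) in choroid plexus-like cells. Hsp90aa1 was at 0.21 (0.07 to 0.36) in macrophage-like and -0.27 (-0.46 to -0.08) in choroid plexus-like cells. Hsph1 was higher in choroid plexus-like cells of both libraries, at 66.4 and 74.3 CPM, than in any of the other named classes with at least 20 cells in both, where it lay between 16.5 and 27.1 CPM. The macrophage-like and choroid plexus-like clusters had 10 and 9 of the 10 microglia markers in at least 25% of their cells, some of which macrophages also express, and the part of microglial RNA in these values was not tested.

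The wider chaperone network, 89 further genes of the same and neighbouring families, had counts near or below the share over all genes in microglia-like cells. Of 81 measured, 7 were at least 1.5-fold higher and 8 lower, against 13.2% and 12% of all genes, and the median log2 ratio was -0.08. The list was drawn up with earlier results of these data known. The heat shock factor HSF1 gene itself was at 38.9 and 45.8 CPM, a log2 ratio of 0.24 (0.15 to 0.32), and Hsf2, a related factor active in development, at 0.67 (0.50 to 0.85).

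**Figure D5:**
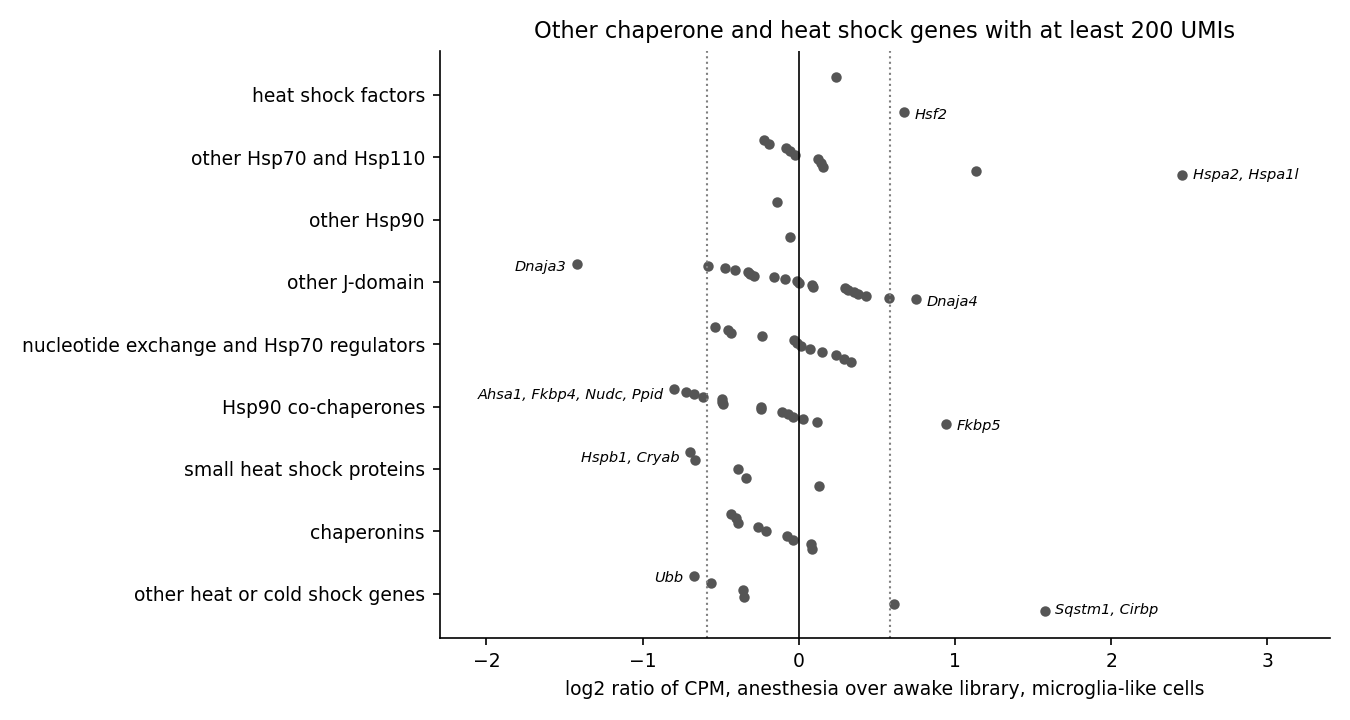
Log2 ratio of CPM, anesthesia over awake library, in microglia-like cells for the 81 measured genes of the wider network (points), by group; dotted lines mark 1.5-fold, and genes past it are named, ordered from low to high within a label. Hspa1l and Hspa2 stand highest among the Hsp70 genes and Dnaja3 is the lowest point.

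Among the 10 other measured Hsp70 and Hsp110 genes, 2 were higher and 0 lower. Hspa1l, a testis-enriched Hsp70 whose gene lies 547 bases from Hspa1a on the other strand, had 88 UMIs awake and 561 UMIs under anesthesia, a log2 ratio of 2.46 (2.13 to 2.80). So all 3 Hsp70 genes of this chromosome 17 cluster were higher in the anesthesia library, 2 of them by over 1.5-fold. Hspa2, another Hsp70 first known from testis, had 55.8 and 123 CPM, a log2 ratio of 1.13 (1.07 to 1.20). The endoplasmic reticulum form Hspa5 was at -0.19 (-0.20 to -0.18) and the mitochondrial form Hspa9 at 0.12 (0.07 to 0.18). Of the other Hsp90 genes, Hsp90b1 of the endoplasmic reticulum was at -0.05 and Trap1 of mitochondria at -0.14.

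Of 20 other J-domain genes, Dnaja4 was higher at 0.75 (0.63 to 0.88) and Dnaja3, a mitochondrial member, lower at -1.42 (-1.60 to -1.25). Exons of Dnaja3 overlap those of Vasn on the same strand, and how reads there were counted is not given in the sources used here. None of 12 nucleotide exchange factors and Hsp70 regulators passed 1.5-fold. The Hsp90 co-chaperones had 1 of 15 higher, the FK506-binding Fkbp5 at 0.94 (0.85 to 1.04), a well-known glucocorticoid target. They had 4 lower: Ahsa1, which speeds the Hsp90 ATPase, at -0.80 (-0.88 to -0.71), Fkbp4 at -0.72 (-0.79 to -0.65), Nudc at -0.67 (-0.74 to -0.61) and Ppid at -0.61 (-0.69 to -0.54). Exons of Ahsa1 overlap those of Gm47293 on the same strand. Chordc1 lay beyond all 4 of them, while Stip1, Cdc37 and Ptges3 lay within 1.5-fold at -0.11, -0.04 and 0.03.

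Of 5 measured small heat shock genes, Hspb1 and Cryab were lower, at -0.70 (-0.83 to -0.57) and -0.66 (-1.02 to -0.31). Cryab rested on 158 and 116 UMIs. Hspb1 had 23.2 and 14.3 CPM, against 1473 and 768 CPM in endothelial-like cells. The part of free RNA from other cells in these 2 ratios was not tested. None of 9 chaperonin genes passed 1.5-fold. The last group mixes heat shock targets with Cirbp and Rbm3, which are known to be induced by mild cold and not by heat. Of its 6 measured genes, Cirbp was higher at 1.57 (1.52 to 1.63), with 68.9 and 205 CPM, while Rbm3 was at -0.35. The autophagy receptor gene Sqstm1 was higher at 0.61 (0.58 to 0.63). The ubiquitin gene Ubb was lower at -0.67 (-0.68 to -0.66).

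Genes known to be induced by dissociation or as an early response were counted beside the members. Of 15, 2 were higher (Ccl3 at 1.10 and Ccl4 at 1.23) and 5 lower (Jund, Btg2, Fosb, Dusp1 and Ier2, from -1.04 to -0.66) in microglia-like cells, with a median of -0.38, against 13.2% higher and 12% lower and a median of -0.02 over all measured genes. Fos was at -0.51, Jun at -0.54 and Egr1 at 0.05. The part of dissociation in the members' values was not tested.

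In endothelial-like cells more of the wider network was lower than higher in the anesthesia library. Of 58 measured genes, 20 were at least 1.5-fold lower and 5 higher, against 20.8% and 18.6% of all genes there, and the median was -0.25. The lower ones included 7 of 11 Hsp90 co-chaperones, such as Ppid at -1.30 (-2.02 to -0.62) and Fkbp4 at -0.90 (-1.33 to -0.48), and 5 of 9 chaperonins, such as Cct4 at -0.97 (-1.45 to -0.50). Hspb1, the small heat shock protein Hsp27, had 1473 and 768 CPM, against 23.2 and 14.3 CPM in microglia-like cells, and its log2 ratio was -0.94 (-1.08 to -0.80). The 10 endothelial markers of these endothelial-like cells were lower too, with summed CPM of 20720 awake and 14345 under anesthesia. How far the Hspb1 ratio goes with that fall was not tested. Hspa2 was higher in this class too, at 1.12 (0.53 to 1.74). In the cells with at most 2 microglia markers the count was 4 lower and 2 higher, with a median of -0.18, from 42 and 32 cells. Fewer genes can reach the UMI minimum in so few cells. The number measured and the share over all genes there are not given, so these counts cannot be set against the 20 and 5. The share of microglial RNA differed between the libraries as given above. Its part in these counts was not tested.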

How the data were processed

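The data are 1 single-cell library of sorted mouse brain cells per group. The deposited values are whole-number UMI counts per gene and cell barcode, made by the authors with Cell Ranger and bcl2fastq on GRCm38. The version is 3.1.0 per the submitters' processing notes and 4.0.0 per the file headers, and the strand setting is not given in the sources used here. Cells with at least 1000 UMIs, 500 genes and at most 10% mitochondrial UMIs were kept (8223 awake and 8944 anesthesia). Cells of the awake and anesthesia libraries were clustered jointly (scanpy 1.11.5, 2000 variable genes, 30 principal components, 15 neighbours, Leiden resolution 0.6 with igraph 0.11.9). The listed chaperone and early-response genes, and mitochondrial, ribosomal and hemoglobin genes, were kept from being variable genes. Names came from lists of up to 10 markers, and clusters that did not qualify were left unnamed (482 and 492 cells). Scrublet scores called 0 and 1 cells, so that caller had not worked, and no cell was removed as a doublet.

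Counts were summed over the cells of a class in each library and divided by that class's total (CPM, counts per 1000000). Ratios carry exact conditional binomial intervals, levels exact Poisson intervals and shares exact Clopper-Pearson ones (scipy 1.17.1). The difference between the ratios of the classes carries a normal interval on the log scale from the 4 counts. PCR and capture add error that these intervals do not hold. Genes counted as measured had at least 200 UMIs in microglia-like or 50 UMIs in endothelial-like cells over both libraries. The interval method was tested on simulated Poisson counts. These lack the extra spread between cells seen here, so that test does not cover it. The members and lists were chosen with earlier results of these data known. Named genes were all members, up to 4 genes per group of the wider list with the largest changes past 1.5-fold in microglia-like cells, the 5 most like the inducible pair and Hspa8, and markers. Hsf1, Rbm3, Hspa5, Hspa9, Hspd1, Hsp90b1, Trap1, Stip1, Cdc37, Ptges3, the genes named in endothelial-like cells, and the early-response genes were named after their values were seen. Alternatives covered the cell filters, scaling, class definition, thinning, GC and length trend, fold and count minimum. Gene positions come from GENCODE M21, which matched all 55450 gene identifiers.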

Additional observations from a re-analysis of the deposited data

How the results depend on the processing

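With 1 library per group nothing here has a replicate check, and no library could be left out. No paired analysis was possible because each group has 1 library. Over the alternatives run, the sign of a member's log2 ratio was unchanged in 88 of 88 values in microglia-like and 94 of 100 in endothelial-like cells, where Hspa1a, Hspa1b and Hspe1 changed sign. The number of members at least 1.5-fold lower in microglia-like cells went from 4 to 2 when scaled without mitochondrial, ribosomal and similar genes, to 2 within clusters (where Hsph1 and Chordc1 gave no value) and to 1 at 2-fold. In endothelial-like cells it went from 2 to 1 without cells over 10000 UMIs, 1 with the class drawn by marker counts, 1 at 2-fold and 0 in cells with at most 2 microglia markers. With the GC and length trend removed, Dnajb1 was at -0.49 and Chordc1 at -1.56 in microglia-like cells. For the wider list in microglia-like cells, the 7 higher and 8 lower became 4 and 3 within clusters, while the median went from -0.08 to -0.07. In endothelial-like cells the 5 higher became 3 without cells over 10000 UMIs, 3 with the mean of per-cell CPM, 2 by marker counts, 2 with at most 2 microglia markers and 10 at a minimum of 20 UMIs. The 20 lower became 11 by marker counts and 4 with at most 2 microglia markers, while the median went from -0.25 to -0.30 and -0.18. Fewer genes can be measured in smaller sets of cells. The numbers measured and the shares over all genes in these settings are not given, so such counts are not like for like. Of 45 member pairs, 1 reached r of 0.2 in unthinned awake cells and 0 after thinning. Beyond the UMI minimum, the cause of these shifts was not tested. Depth limited Hsph1, with 19 and 15 UMIs in endothelial-like cells, and Chordc1, with 47 and 25.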

Other observations

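A cluster of 170 awake and 24 anesthesia microglia-like cells was led by Clec7a, Lgals3, Spp1 and Lpl, genes known from disease-associated and developmental microglia. In the awake library it differed from all awake microglia-like cells in several chaperone levels. It held 3224 CPM of Hsp90ab1, 1594 CPM of Hspa8 and 228 CPM of Hspe1, against 2482, 1392 and 154 CPM over all awake microglia-like cells. The stress-inducible Hsp90aa1 was at 1229 against 1092 CPM. Hspa1a and Hspa1b were lower, with 290.5 and 17.6 CPM against 404 and 32.8 CPM, as were Dnajb1, with 543 against 651 CPM, and Dnaja1, with 353 against 390.1 CPM. Hsph1 and Chordc1, from 40 and 78 UMIs, had intervals that included the level over all awake microglia-like cells. The interferon-response cluster held 2701 CPM of Hsp90ab1, 1504 CPM of Hspa8, 189 CPM of Hspe1, 399 CPM of Hspa1a and 35.3 CPM of Hspa1b in 112 awake cells. Awake cells of cluster 2 held 1489 CPM of Hspa8, 340 CPM of Hspa1a and 27.0 CPM of Hspa1b. So higher Hspa8 and Hspe1 and a lower inducible pair were not particular to the cluster led by Clec7a. These are levels of the same gene in cells of 1 library, and they carry no replicate error.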
